A study of Saccharomyces cerevisiae with 6 samples.

Results

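Purine nucleotides are the building blocks of RNA and DNA and the carriers of cellular energy, and the genes described here make, recycle and import them in Saccharomyces cerevisiae, together with the genes of one-carbon metabolism that supply carbon atoms to the purine ring. The members were 38 listed genes, matched by symbol or older alias to the annotation of the array, and 37 of them were measured, each by 1 probe, among 6345 features in all. ADE5,7, which codes for an enzyme of early ring assembly, had no matched probe and was not analysed here.

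The ring is assembled step by step on PRPP, an activated ribose phosphate, until inosine monophosphate (IMP) is reached, and IMP is then turned into AMP along one branch and into GMP along another. Salvage enzymes recover free bases and nucleosides, and the folate-bound one-carbon units used in ring assembly come mainly from serine and glycine. In yeast the transcription factors Bas1 and Pho2 activate most of the ADE genes when adenine is scarce.

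Cells were the haploid MATa strain W303-1A, and all cultures, controls included, carried the alleles ade2-1, his3-11, 15 and ura 3-1, with leu2-3, 122, trp1-1 and can1-100 besides. The ade2 mutation blocks a step of ring assembly, so that all 6 cultures depended on adenine from the medium, and the description of the purine genes holds for such a strain. Cultures were grown in YEPD, a rich medium with 20 g/l each of glucose and bactopeptone and 10 g/l of yeast extract, shaken at 110 rpm and kept at 30 °C. They were inoculated from a parent that had reached late exponential growth unstressed, 3 of them without ethanol (0%) and 3 at 6.5% (v/v) ethanol. How long they stood in ethanol is not stated in the sources used here. Equal cell numbers gave the RNA, and each culture was hybridised on one 2-colour array against pooled RNA of the 0% cultures. Mating type could not be checked, since a ratio to a pool gives no level. As the RNA came from whole cultures, less RNA per cell and fewer cells with the transcript cannot be told apart.

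Each value is the log2 of culture over pool. The median of each array as deposited lay between 0.0085 and 0.0369, and the normalization is not stated. Changes are thus read relative to the other features, and a change shared by most transcripts might not show. A change is the 6.5% mean minus the 0% mean, given with the SE that limma estimated (3 arrays in each group). A gene was called at an adjusted p below 0.05, the Benjamini-Hochberg method being applied over all features. The ratios were taken as red over green. This order is usual but not stated, and with it the stress gene HSP26 is higher in ethanol (5.33 ± 0.33). If it were opposite, every direction below would turn. The dyes were swapped on the arrays of culture 1 of each group, where red was the pool, and these arrays stood apart. After turning, the array of 6.5% culture 1 correlated with those of 6.5% cultures 2 and 3 at r = −0.06 and −0.10, and those 2 correlated at 0.85 (across probes, so over points that are not independent). The model therefore held a term for dye orientation, which was called for 34.0% of all features and for 8 of the 37 members. A property of culture 1 and the dye orientation cannot be told apart. No member was at the limit of the table (6.64 on either side), their values lying between −4.34 and 2.20, and no intensities were used, so the signal over background is unknown.

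Ethanol was accompanied by lower transcript levels of the whole measured GMP branch, GUK1 included, and of part of the salvage pathway. Most genes of ring assembly were not called. With the arrays scaled to equal spread only 2 of the 5 GMP branch genes and 2 of the 4 salvage genes called lower were still called. Without 6.5% culture 2 or 3 none of them was called. In one-carbon metabolism 3 of 8 genes were called higher, and only MTD1 of them was also called with the arrays scaled to equal spread. Of the 37 members 12 fell, or 32.4%, against 10.4% of all features. Only 4 rose, or 10.8%, near the 7.69% of all features. The median change was −0.43 over the members and 0.04 over all features. In the 12 genes that fell, each 6.5% array read below each 0% array. They had been called on the same arrays, so this separation is no separate support for them. Counting the uncalled members FCY2 and MIS1, such a separation downward was found in 14 members, or 37.8% of them, against 14.0% of all features, and with ethanol it was found upward in 3 members, against 11.3% of all features. All 16 called genes changed at least 2-fold, as did 93.5% of all called features.

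The number of calls depended on single arrays. Without the array of 6.5% culture 2 or that of 6.5% culture 3 none of the 37 members was called (lowest adjusted p = 0.0591 and 0.0526), while 16 had an unadjusted p under 0.05 in either fit. Over all features those fits called 2 and 51, against 1150 with all arrays. Without 0% culture 2 the call was met by 8 members and 485 features, and without 0% culture 3 by 13 members and 754 features. With either swapped array left out it was met by 18 members and 1253 features. The count of members thus moved with that of all features. In each fit without 1 array the 16 called genes kept the direction of their change. These genes had been called on the same arrays, so the kept direction is no separate support for them. Without the dye term 78 features were called, and among the members only IMD2 and GUA1. With the replicate number as a block 607 features and 13 members were called, of which 2 were higher. With the arrays scaled to equal spread (equalised arrays) 311 features were called and 6 members, namely PRS5, IMD2, GUK1, AAH1, ADO1 and MTD1. After quantile normalization 484 features and 10 members were called.

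**Figure D1:**
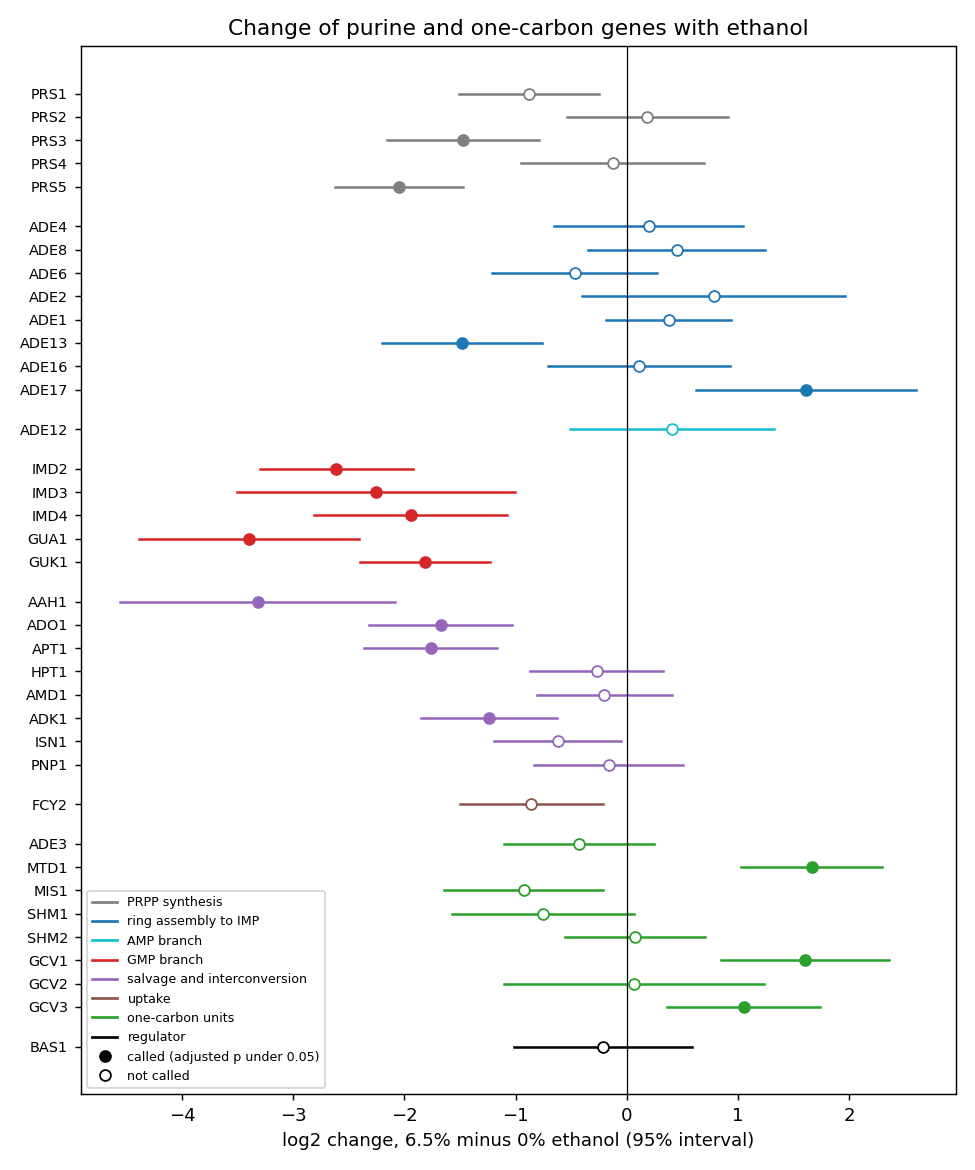
Change of each measured member (log2, 6.5% minus 0% ethanol, x axis) with its 95% interval from limma, by gene (y axis) and coloured by role. Filled points are called at an adjusted p below 0.05. All 5 genes of the GMP branch lie between −3.40 and −1.82.

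In the GMP branch 5 of 5 genes fell, against 10.4% of all features, with a median change of −2.26. The branch was taken to include GUK1, which acts on GMP itself. On the AMP side ADE13 was counted under ring assembly and ADK1 under salvage, and both of these fell. The contrast between the branches thus depends in part on how the roles were assigned. On equalised arrays only IMD2 and GUK1 of these 5 were called, and after quantile normalization only IMD2, GUA1 and GUK1. GUA1 (YMR217W) codes for GMP synthase, which makes GMP from xanthosine monophosphate. It read −0.41, 1.18 and 1.11 on the arrays of 0% cultures 1, 2 and 3, and −2.54, −2.83 and −2.95 on those of 6.5% cultures 1, 2 and 3. The ethanol arrays were low and lay close together, while on the control side the swapped array was below the other two. GUA1 fell by 3.40 ± 0.42, or 10.6-fold (95% interval −4.39 to −2.41, adjusted p = 0.00783), and ranked 7 from the lowest among the changes of all 6345 features. On equalised arrays GUA1 was at −2.73 with an adjusted p of 0.0512.

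IMD2 (YHR216W), IMD3 (YLR432W) and IMD4 (YML056C) code for IMP dehydrogenase, which commits IMP to the GMP branch and limits its flow. IMD2 read 0.14, −0.57 and 0.11 on the 0% arrays and −2.17, −2.96 and −3.03 on the 6.5% arrays, and fell by 2.61 ± 0.29, or 6.11-fold (adjusted p = 0.00633). Its 6.5% arrays all lay more than 1 unit below the lowest control. IMD4, with −0.41, 0.52 and −0.05 at 0% and −1.43, −2.23 and −2.11 at 6.5%, fell by 1.94 ± 0.36 (adjusted p = 0.0173). IMD3 read −0.39, 0.81 and 0.91 at 0% and −0.92, −2.13 and −2.39 at 6.5%. The swapped ethanol array was the highest of its group for all 3 genes, and for IMD3 it stood nearer to the lowest control than to the other ethanol arrays. IMD3 fell by 2.26 ± 0.53 (adjusted p = 0.0309), but it was not called with the replicate number as a block (adjusted p = 0.0612) or after removal of the probe-number trend, described below, (−1.99, adjusted p = 0.0559). The 3 genes are close copies of each other, no probe sequences were used here, and how far each probe also bound RNA of the other copies was not tested. IMD1, a further copy, had no matched probe and was not analysed here.

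GUK1 (YDR454C), which codes for the guanylate kinase that turns GMP into GDP, read 0.44, 0.20 and 0.16 at 0% and −1.11, −1.83 and −1.71 at 6.5%. The control arrays agreed closely and all ethanol arrays lay below −1. GUK1 fell by 1.82 ± 0.25, or 3.52-fold (adjusted p = 0.00857). Without 6.5% culture 2 the 5 genes of the branch lay between −3.25 and −1.74, with adjusted p-values from 0.0591 to 0.128. Without 6.5% culture 3 they lay between −3.19 and −1.81, with adjusted p-values from 0.0526 to 0.121. IMD3 and IMD4 lost their calls without 0% culture 2 (adjusted p = 0.104 and 0.0529), and IMD3 also without 0% culture 3 (0.0823). On equalised arrays their adjusted p-values were 0.129 for IMD3 and 0.111 for IMD4, and after quantile normalization 0.106 and 0.0846.

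The first gene of the AMP branch was not called. ADE12 (YNL220W), which codes for adenylosuccinate synthase, the first enzyme from IMP towards AMP, was at 0.41 ± 0.39 and did not pass (95% interval −0.51 to 1.32). It read −0.47, −0.38 and 0.61 at 0% and −0.62, 0.46 and 1.15 at 6.5%, so that the groups overlapped. ADE13 (YLR359W) codes for adenylosuccinate lyase, which acts both in ring assembly and in the second step from IMP to AMP. ADE13 read −0.17, 0.52 and 1.14 at 0% and −1.19, −0.78 and −0.998 at 6.5%, without overlap, and fell by 1.48 ± 0.30 (adjusted p = 0.0219).

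Most genes of ring assembly were not called. Of 8 measured, ADE13 fell, ADE17 rose and 6 did not pass, and the median change was 0.29. ADE17 (YMR120C) codes for one of a pair of isozymes that carry out the last steps to IMP. It read −0.27, −0.53 and 0.14 at 0% and 0.26, 2.20 and 1.73 at 6.5%. The unswapped ethanol arrays were high, whereas the swapped one stood just above the highest control. ADE17 rose by 1.61 ± 0.42, or 3.05-fold (adjusted p = 0.0406), and was not called with the replicate number as a block (adjusted p = 0.0764). The other isozyme gene, ADE16 (YLR028C), was at 0.11 ± 0.34 (95% interval −0.70 to 0.93) and did not pass. Whether the changes of ADE16 and ADE17 differ was not tested, and their intervals overlap.

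ADE4 (YMR300C), which codes for the amidotransferase that starts the pathway from PRPP and is inhibited by purine nucleotides, was at 0.20 ± 0.36 (95% interval −0.65 to 1.05). It read −0.43, 0.91 and 0.70 at 0% and −1.22, 1.58 and 1.42 at 6.5%. The unswapped ethanol arrays were above all controls and the swapped one below them, and the dye term of ADE4 was called (−1.98, adjusted p = 0.0111). ADE8, the glycinamide ribotide transformylase gene, was at 0.45 ± 0.33. ADE6, which codes for the next enzyme of the pathway, was at −0.47 ± 0.31. ADE1, the gene of SAICAR synthetase, was at 0.38 ± 0.24. None of these 3 was called, and their groups overlapped.

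ADE2 (YOR128C), the gene mutated in this strain, codes for the carboxylase whose loss gives ade2 cells their red pigment. Its transcript read −0.50, −1.29 and 0.20 at 0% and −0.64, 1.05 and 0.35 at 6.5%. The groups overlapped, and the swapped ethanol array lay with the controls. ADE2 was at 0.78 ± 0.50 and did not pass (95% interval −0.40 to 1.97, adjusted p = 0.302), an interval that reaches from a small decrease to a nearly 4-fold increase. Without 6.5% culture 2 or 3 neither ADE13 nor ADE17 was called (ADE13 at −1.48 and −1.36, ADE17 at 1.32 and 1.59). Both also lost their calls without 0% culture 2 (adjusted p = 0.0544 for ADE13 and 0.110 for ADE17), and ADE17 without 0% culture 3 (0.0855). Neither was called on equalised arrays (adjusted p = 0.101 for ADE13 and 0.0653 for ADE17), and ADE13 was not called after quantile normalization (0.0754).

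BAS1 (YKR099W) was at −0.21 ± 0.34 and did not pass (95% interval −1.02 to 0.59). PHO2, which codes for the partner of Bas1, read −0.18, −0.80 and −0.74 at 0% and 1.10, −0.03 and 0.45 at 6.5%. PHO2 rose by 1.08 ± 0.26 (adjusted p = 0.0347), but it was not called without any 1 of the 6 arrays (adjusted p from 0.0661 to 0.163), with the replicate number as a block (0.0681), on equalised arrays (0.0753), after quantile normalization (0.0652) or after removal of the probe-number trend (0.64, adjusted p = 0.137). GCN4, which codes for the activator of amino acid synthesis genes and of several purine genes, was at 0.15 ± 0.25 and was not called.

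**Figure D2:**
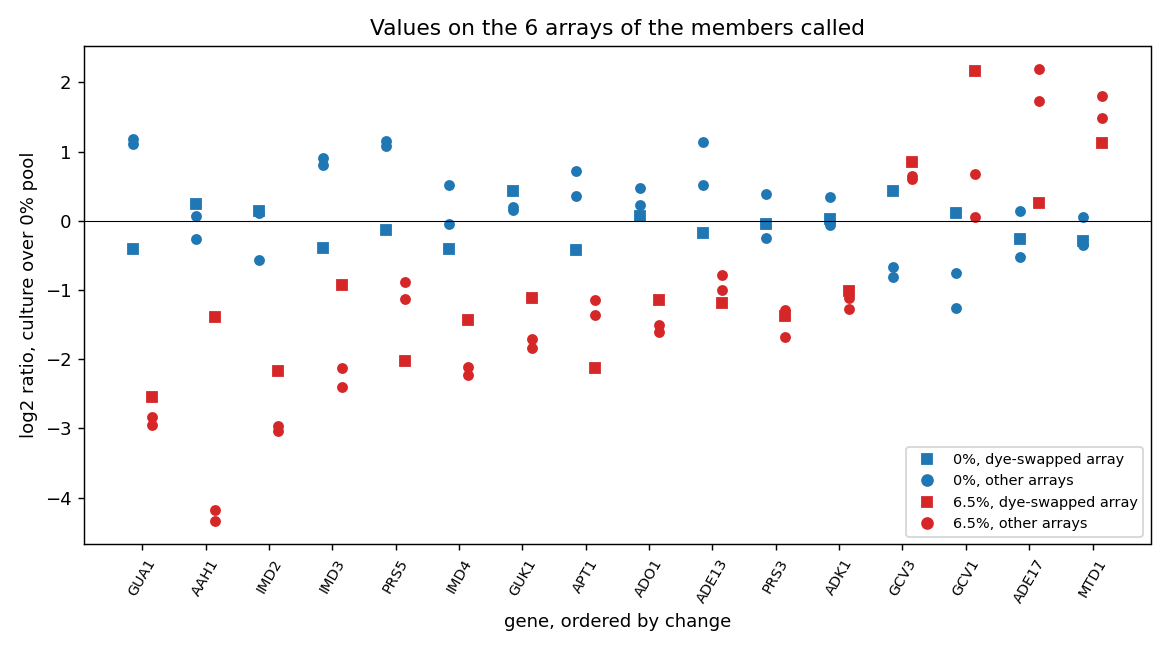
Log2 ratio of culture over 0% pool (y axis) on each of the 6 arrays for the 16 members called (x axis, from the lowest to the highest change), with squares for the dye-swapped arrays. The 0% and 6.5% arrays are apart for all of them except GCV1, whose swapped 0% array lies above 1 of the 6.5% arrays.

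Among the genes that make PRPP, the substrate shared by purine, pyrimidine, histidine and tryptophan synthesis, 2 of 5 fell, against 10.4% of all features. PRS1 to PRS5 code for subunits of PRPP synthetase. PRS5 (YOL061W) read −0.14, 1.07 and 1.16 at 0% and −2.03, −1.13 and −0.89 at 6.5%, and fell by 2.05 ± 0.24, or 4.13-fold (adjusted p = 0.00743). PRS3 (YHL011C) read −0.05, 0.39 and −0.25 at 0% and −1.37, −1.67 and −1.29 at 6.5%, and fell by 1.47 ± 0.29 (adjusted p = 0.0195). For both genes the groups were clearly apart, and the swapped and the unswapped arrays gave similar changes. These were −1.89 and −2.13 for PRS5 and −1.32 and −1.55 for PRS3. The dye term was called for PRS5 (−1.14, adjusted p = 0.0182) but not for PRS3 (adjusted p = 0.993). Without that term neither gene was called (adjusted p = 0.101 for PRS5 and 0.0818 for PRS3). PRS1 was at −0.88 ± 0.27, with overlapping groups and an adjusted p of 0.0633. PRS2 and PRS4 were at 0.19 ± 0.30 and −0.12 ± 0.35 and were not called. Without 6.5% culture 2 or 3 neither PRS3 nor PRS5 was called (adjusted p from 0.0546 to 0.107), and PRS3 also lost its call without 0% culture 2 (0.0554), on equalised arrays (0.0752) and after quantile normalization (0.0575).

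In salvage and interconversion 4 of 8 genes fell, against 10.4% of all features, and none rose. All 8 changes were below 0, with a median of −0.93, and 3047 of the 6345 features were below 0. After removal of the probe-number trend AMD1 and PNP1 were above 0 (0.071 and 0.049). AAH1 (YNL141W) codes for adenine deaminase, which converts adenine to hypoxanthine and so leads adenine taken from the medium towards guanine nucleotides. It read 0.24, −0.26 and 0.07 at 0% and −1.39, −4.34 and −4.18 at 6.5%. All ethanol arrays were low, and the swapped one lay almost 3 units above the other two. AAH1 fell by 3.32 ± 0.52, or 9.99-fold (95% interval −4.55 to −2.09, adjusted p = 0.0120), and ranked 10 from the lowest among all features.

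ADO1 (YJR105W), the adenosine kinase gene, read 0.06, 0.48 and 0.23 at 0% and −1.15, −1.60 and −1.50 at 6.5% and fell by 1.67 ± 0.27 (adjusted p = 0.0126). APT1 (YML022W) codes for the phosphoribosyltransferase that turns adenine directly into AMP. It read −0.42, 0.36 and 0.72 at 0% and −2.12, −1.37 and −1.15 at 6.5%. APT1 fell by 1.76 ± 0.25, or 3.40-fold (adjusted p = 0.00916), and its dye term was called (−0.91, adjusted p = 0.0388). AAH1 and APT1, which act on free adenine, read lower on each 6.5% array than on any 0% array, as did every member called lower. APT2, another gene of the APT1 family and no member, was at 0.56 ± 0.30 and was not called. ADK1 (YDR226W), which codes for the major adenylate kinase, the enzyme that balances AMP, ADP and ATP, read 0.02, 0.34 and −0.06 at 0% and −1.02, −1.12 and −1.28 at 6.5%. Its arrays agreed closely within each group, and ADK1 fell by 1.24 ± 0.26 (adjusted p = 0.0229).

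The other salvage genes did not pass. HPT1, which codes for the phosphoribosyltransferase of hypoxanthine and guanine, was at −0.27 ± 0.25 (95% interval −0.87 to 0.33). AMD1, the AMP deaminase gene, was at −0.20 ± 0.25 (95% interval −0.80 to 0.40), and PNP1, the purine nucleoside phosphorylase gene, at −0.16 ± 0.28 (95% interval −0.84 to 0.51). In the main fit the intervals of these 3 genes exclude a 2-fold change in either direction. After removal of the probe-number trend HPT1 was at −0.59 (adjusted p = 0.143). ISN1, which codes for the phosphatase that releases inosine from IMP, was at −0.62 ± 0.24 (adjusted p = 0.118). Without 6.5% culture 2 or 3 none of the 4 salvage genes that fell was called (changes from −3.12 to −1.16, adjusted p from 0.0642 to 0.118), and without 0% culture 2 ADK1 was not called (0.0631). ADK1 also lost its call on equalised arrays (−1.02, adjusted p = 0.0740) and after quantile normalization (0.0603), and APT1 lost its call on equalised arrays (−1.29, adjusted p = 0.0758).

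FCY2 (YER056C) codes for the permease that imports adenine, guanine, hypoxanthine and cytosine. It read −0.18, 0.02 and −0.32 at 0% and −0.63, −1.15 and −1.27 at 6.5%, so that the groups did not overlap. FCY2 was at −0.86 ± 0.27 and did not pass (adjusted p = 0.0701), but it was called after removal of the probe-number trend (−1.10, adjusted p = 0.0382).

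Of the 8 genes of one-carbon metabolism 3 rose, against 7.69% of all features, none fell and 5 did not pass. The median change was 0.07. MTD1 (YKR080W) codes for the NAD-dependent methylenetetrahydrofolate dehydrogenase of the cytosol. It read −0.29, −0.35 and 0.06 at 0% and 1.13, 1.80 and 1.49 at 6.5%, and every ethanol array was more than 1 unit above every control. The rise of MTD1 was 1.66 ± 0.27, or 3.17-fold, with a 95% interval of 1.03 to 2.30 and an adjusted p of 0.0122.

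GCV1, GCV2 and GCV3 code for subunits of the mitochondrial glycine decarboxylase complex, which breaks glycine down and passes a carbon unit to folate. GCV1 (YDR019C) read 0.11, −1.26 and −0.76 at 0% and 2.17, 0.68 and 0.05 at 6.5%. These groups overlapped, the swapped array being the highest on each side, and the dye term was called (1.46, adjusted p = 0.0192). Beside that term GCV1 rose by 1.60 ± 0.32 (adjusted p = 0.0204). GCV3 (YAL044C) read 0.43, −0.82 and −0.67 at 0% and 0.85, 0.61 and 0.64 at 6.5% and rose by 1.05 ± 0.29, close to the threshold (adjusted p = 0.0491). GCV3 was not called with the replicate number as a block (adjusted p = 0.0941) or after removal of the probe-number trend (0.57, adjusted p = 0.352). GCV2 (YMR189W) read −0.14, 1.06 and −0.17 at 0% and −1.32, 1.20 and 1.06 at 6.5%. Its unswapped ethanol arrays were high and its swapped one was low, and at 0.07 ± 0.49 it was not called. The 95% interval of GCV2, −1.10 to 1.23, includes a 2-fold change in either direction, and whether the subunits differ in their change was not tested.

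MIS1 and ADE3 code for the trifunctional C1-tetrahydrofolate synthases of mitochondria and cytosol, which interconvert one-carbon units. MIS1 (YBR084W) read −0.12, −0.01 and −0.16 at 0% and −0.37, −1.26 and −1.45 at 6.5%, without overlap. It was at −0.93 ± 0.30 and did not pass (adjusted p = 0.0772), but was called lower after removal of the probe-number trend (−1.40, adjusted p = 0.0173). ADE3 (YGR204W) was at −0.43 ± 0.28, with overlapping groups. SHM1 and SHM2 code for the mitochondrial and the cytosolic serine hydroxymethyltransferase, which take one-carbon units from serine. SHM1 was at −0.75 ± 0.35 and SHM2 at 0.07 ± 0.27 (95% interval of SHM2 −0.56 to 0.70), and neither was called. Without 6.5% culture 2 or 3 none of the 3 genes that rose was called (adjusted p from 0.0647 to 0.195). GCV1 and GCV3 lost their calls without 0% culture 2 (0.0666 and 0.126), and GCV3 also without 0% culture 3 (0.106). Both also lost their calls on equalised arrays (0.0524 and 0.261), and GCV3 after quantile normalization (0.211).

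The 21 members that were not called lay between −0.93 and 0.78. For 8 of them the 95% interval of the main fit stayed within a 2-fold change in either direction. For 9 it reached beyond a 2-fold decrease, and for 5 beyond a 2-fold increase, GCV2 being counted in both, so that a change of that size is not excluded for these genes.

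Since the dye-swapped arrays stood apart, the change was also read within each dye orientation. The single swapped pair and the 4 unswapped arrays gave a change of the same direction in all 16 called members, as in 100% of all called features. Of the 37 measured members 25, or 67.6%, had the same direction in both, near the 66.6% of all features. The changes of GUA1 were −2.13 in the swapped pair and −4.04 in the unswapped arrays, those of AAH1 −1.63 and −4.17, and those of IMD3 −0.53 and −3.12. IMD2 was more alike in both, at −2.30 and −2.76, as was APT1 at −1.70 and −1.80. In all 12 genes that fell, the decrease was smaller in the swapped pair. This was the case for 65.7% of the 662 features called lower. Among the genes that rose, ADE17 changed by 0.52 in the swapped pair and 2.16 in the unswapped arrays, MTD1 by 1.42 and 1.79, GCV3 by 0.42 and 1.37, and GCV1 by 2.06 and 1.38. Of these 4 genes only GCV1 changed more in the swapped pair.

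**Figure D3:**
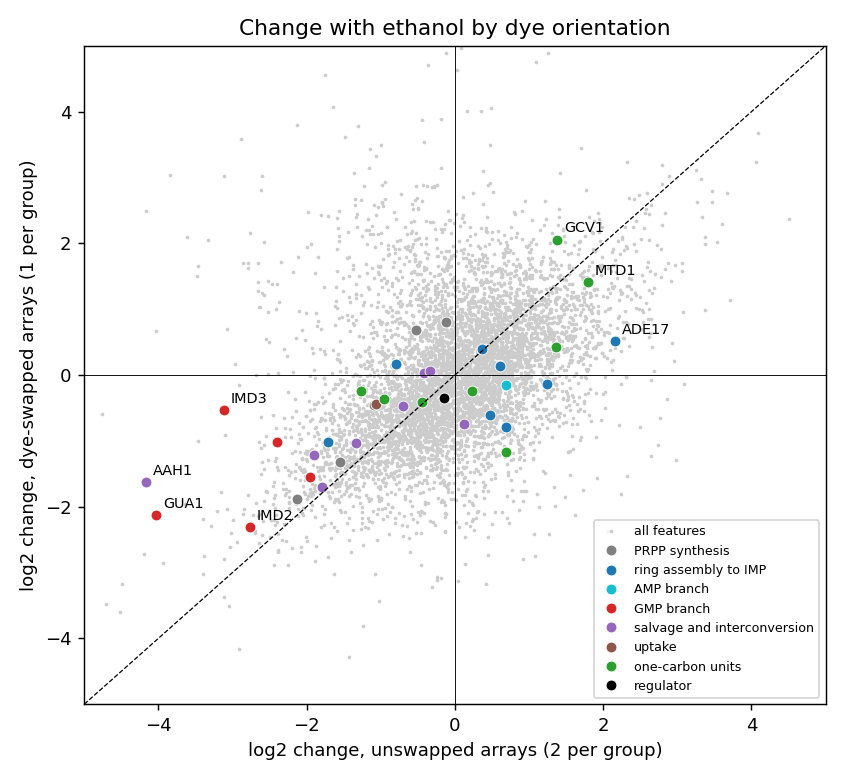
Change with ethanol (log2) in the 4 unswapped arrays (x axis) against that in the swapped pair (y axis), for all features in grey and the members in colour by role. The dashed line marks equal change, and 11 features lie outside the axes, which end at 5 on either side. GUA1, AAH1 and IMD3 lie above the line in its lower part, with a smaller decrease in the swapped pair.

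On each array the ratios drifted with the number of the probe, and a further fit removed this drift (lowess along the probe number, array by array). With the trend removed 836 features were called, 5.91% of all features higher and 7.27% lower, and among the members 3 rose and 13 fell. Of the 16 called members 14 kept their calls, IMD3 and GCV3 lost theirs, and FCY2 and MIS1 were newly called. GUA1 was then at −3.11, AAH1 at −3.005, IMD2 at −2.58 and GUK1 at −2.13. ADE17 and MTD1 were at 1.90 and 1.78. The median of the GMP branch was −2.13 and that of the members −0.47. The 14 members called in both fits had the same direction in each.

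**Figure D4:**
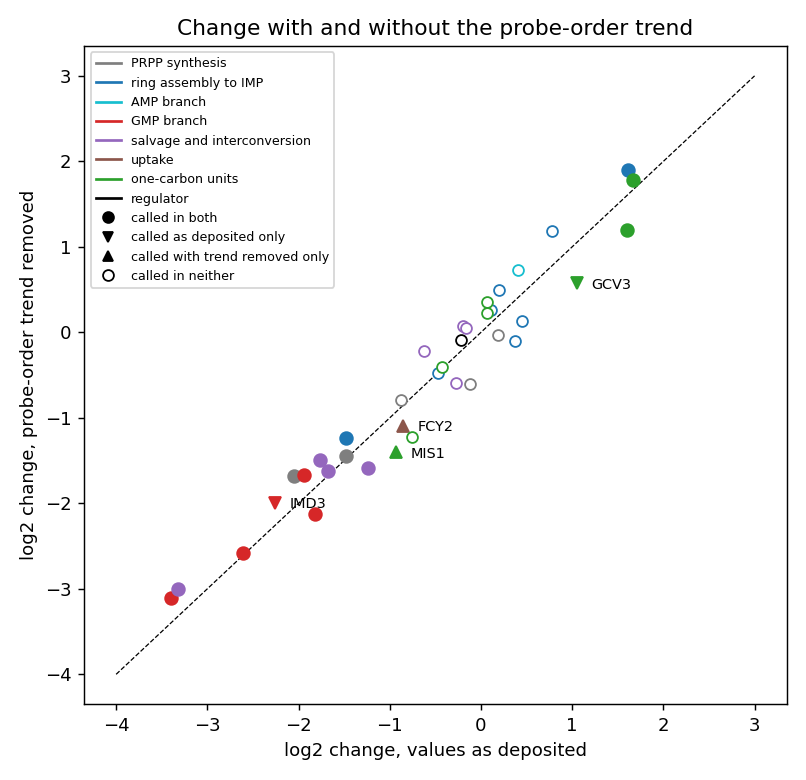
Change of each member (log2) with the values as deposited (x axis) and with the probe-order trend removed (y axis), coloured by role. Triangles mark the 4 members whose call differed, GCV3 and IMD3 being called as deposited and FCY2 and MIS1 with the trend removed.

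Genes of neighbouring pathways were read in the same fit. Of 14 further genes listed for purine metabolism 1 rose and 1 fell, with a median of 0.24. That is 14.3% called, against 18.1% of all features. MEU1, the methylthioadenosine phosphorylase gene, whose enzyme returns adenine from polyamine synthesis to the purine pool, read 0.28, 1.52 and 0.63 at 0% and −2.35, −0.98 and −1.27 at 6.5% and fell by 2.34 ± 0.32 (adjusted p = 0.00873). URH1, though on this list, codes for a nucleoside hydrolase that acts on uridine and belongs to pyrimidine salvage. It read 0.00, −1.75 and −0.12 at 0% and 2.05, 1.52 and 1.84 at 6.5% and rose by 2.43 ± 0.45 (adjusted p = 0.0168). For both genes the groups did not overlap, but neither was called without 6.5% culture 2 or 3 (adjusted p from 0.0594 to 0.0843), and URH1 was not called on equalised arrays (0.0524).

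Of 14 folate genes 2 fell, with a median of 0.12, so that 14.3% were called, against 18.1% of all features. Neither was called with the replicate number as a block, with the trend removed, on equalised arrays or after quantile normalization. CDC21, the thymidylate synthase gene, was at −1.23 ± 0.27 (adjusted p = 0.0258, and 0.0598 with the block) and was called in none of the 6 fits without 1 array (adjusted p from 0.0534 to 0.113). FOL1, a gene of folate synthesis, was at −1.09 ± 0.25 (adjusted p = 0.0304, and 0.0628 with the block) and lost its call without culture 2 or 3 of either group (0.0559 to 0.147).

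Histidine synthesis starts from PRPP and ATP and returns AICAR, an intermediate of ring assembly. Of its 7 genes 2 rose and none fell, with a median of 0.80. Calls were made for 28.6% of them, against 18.1% of all features. HIS5 read −0.26, −1.50 and −0.45 at 0% and 1.17, 2.02 and 1.87 at 6.5% and rose by 2.42 ± 0.42 (adjusted p = 0.0150). HIS4 read 0.50, 0.16 and −0.24 at 0% and 2.13, 1.54 and 1.45 at 6.5% and rose by 1.57 ± 0.25 (adjusted p = 0.0122). Both were higher on every ethanol array than on any control. Neither was called without 6.5% culture 2 or 3 (adjusted p from 0.0734 to 0.0844), and HIS4 was not called on equalised arrays (0.0961) or after quantile normalization (0.0640).

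The pyrimidine pathway, the other route to nucleotides, had a share of calls of 43.8%, beside 43.2% for the members and 18.1% for all features. Of 16 genes 6 fell and 1 rose, with a median of −0.996. URA1, the dihydroorotate dehydrogenase gene, read −0.39, 1.27 and 0.77 at 0% and −2.78, −2.04 and −1.95 at 6.5% and fell by 2.81 ± 0.28 (adjusted p = 0.00617). FUR1, which codes for the phosphoribosyltransferase that salvages uracil, read −0.18, 0.10 and −0.01 at 0% and −1.94, −2.36 and −2.03 at 6.5% and fell by 2.08 ± 0.26 (adjusted p = 0.00790). URA10, a minor isozyme gene of orotate phosphoribosyltransferase, read −0.49, −0.26 and 1.32 at 0% and 1.78, 3.04 and 3.61 at 6.5% and rose by 2.62 ± 0.45 (adjusted p = 0.0143). The groups did not overlap for any of the 3 genes. Without 6.5% culture 2 none of the 16 was called (adjusted p = 0.0591 for URA1, 0.0594 for FUR1 and 0.0753 for URA10), and without 6.5% culture 3 only URA1 was. Without 0% culture 2 the called genes numbered 4. Whether purine and pyrimidine genes differ in their change was not tested.

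**Figure D5:**
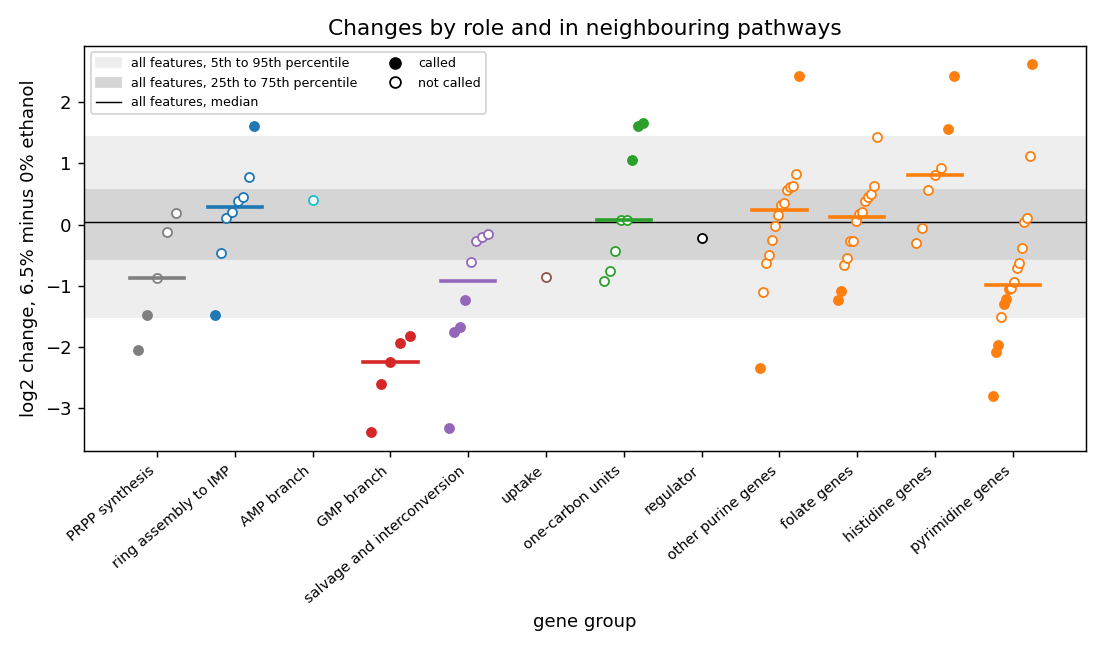
Change with ethanol (log2, y axis) of each member by role and of the genes of 4 further lists (orange), with filled points for genes called and lines at group medians. Grey bands give the spread of all features, whose central 50% lie between −0.57 and 0.56. The 5 genes of the GMP branch all lie below the 5th percentile of all features, −1.51.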

How the data were processed

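The authors deposited 1 table of log2 ratios of the 2 dye channels, for 6368 probes on 6 arrays, and dyes and pool are as given per the labels. Neither the scanner nor the background correction, normalization or ratio direction is stated in the sources used here. The values were taken as red over green, and the swapped arrays (culture 1 of each group) were multiplied by −1. Of the probes 5673 had a single gene in the platform annotation, all matched to the RefSeq table of assembly R64, and 695 had none. Probes of 1 gene were averaged, which gave 6345 features. In R 4.3.3, limma 3.58.1 (lmFit, eBayes) was run on all 6 arrays, with terms for ethanol and dye orientation and 3 residual degrees of freedom, and two-sided p-values were adjusted over all features. The 3 arrays of a group came from separate cultures.

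Same-numbered arrays deviated together from their group means (r = 0.70, 0.48 and 0.43 for numbers 1, 2 and 3), so a fit with the number as a block was read beside the main one. Number 1 marks the dye swap, which the main fit already holds. The difference of cultures 2 and 3 correlated at −0.04 between the groups. On 20 simulated data sets of this comparison with 200 of 6345 features changed, the test recovered 3.0% of changes of 1 log2 unit, 55.8% of 2 and 78.6% of 3, and 4.91% of its calls were false. The simulated noise was independent between arrays, and fewer features were changed than the 1150 called here. These shares therefore need not hold for the real data. Members and lists were chosen with earlier results of these data known. All members could be named, with PHO2, GCN4 and up to 2 called genes per direction of each other list. APT2 was named beyond this rule, after its values were seen. No promoter or protein sequences were used here, and the planned motif and paralog searches were not run.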

Additional observations from a re-analysis of the deposited data

How the results depend on the processing

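Precision is limited by 3 arrays per group, signal over background is unknown, and leaving out an array lowers the residual degrees of freedom. Where no cause is given it was not tested. With 1 array left out, the features called ranged from 2 to 1253 and the members from 0 to 18, with 0 to 14 lower and 0 to 4 higher. The called genes then ranged from 0 to 3 in the other purine genes and in the folate genes, from 0 to 2 in the histidine genes and from 0 to 10 in the pyrimidine genes. Both fits without a swapped array give the same values, since the dye term then takes up the remaining one. Without the dye term limma called 78 features and 2 members, 2 lower and 0 higher (14 and 4 at an unadjusted p under 0.05), 0 other purine, 0 folate, 0 histidine genes and 1 pyrimidine gene. With the replicate number as a block, which leaves 2 residual degrees of freedom, it called 607 features, 13 members, of which 2 were higher, and 0 folate genes. Beside the calls named in the report the block changed none of the members. With the arrays scaled to equal spread there were 311 features, 6 members (5 lower, 1 higher), 1 other purine, 0 folate, 1 histidine and 3 pyrimidine genes. Quantile normalization gave 484 features, 10 members (7 lower), 0 folate genes and 1 histidine gene, and removal of the trend along the probe number gave 0 folate genes. Taking the first probe of each gene could not change the members' values, since each had 1 probe. The changes are also the same by construction without the dye term and with the block, since each group holds the same numbers and orientations. Under the trend removal, the scaling, the quantile normalization and the 6 fits without 1 array, all 16 members called as deposited kept their direction. Having been called on the same arrays, they gain no separate support from this. Signs turned only in members without a call: with the trend removed PRS2 was at −0.034, ADE1 at −0.10, AMD1 at 0.071 and PNP1 at 0.049, as was GCN4, which is no member, at −0.13. SHM2 was at −0.071 after scaling and −0.062 after quantile normalization. With 1 array left out, PRS2 ranged from −0.12 to 0.37, PRS4 from −0.53 to 0.14, ADE4 from −0.00021 to 0.69, ADE16 from −0.19 to 0.47, PNP1 from −0.29 to 0.12, SHM2 from −0.066 to 0.23, GCV2 from −0.46 to 0.69 and BAS1 from −0.47 to 0.0060. The alternatives for PHO2, GCN4 and the genes named from the other lists were chosen after seeing the data.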
